A study of Mus musculus with 8 samples.

Results

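The genes described here encode the proteins of the cytosolic ribosome. They were taken from the count table by symbol, as Rpl or Rps followed by a digit together with Rplp0, Rplp1, Rplp2 and Rpsa, without Rpl13a, the Rps6k kinases and pseudogene rows. Of 105 rows with such a symbol, 85 were kept, out of 24469 genes in all. They comprise 51 large subunit genes, 33 small subunit genes and Rps19bp1, which meets the symbol rule but encodes a binding protein of Rps19 and not a ribosomal protein, and which is therefore left out of all sums and medians. The remaining 84 genes are 76 core genes, 45 of the large and 31 of the small subunit, and 8 paralogs, additional copies that encode a variant of a core protein. After a filter on low counts, 13617 genes were tested, among them 48 large and all 33 small subunit genes, 81 in total. The 3 genes below the filter, all paralogs of the large subunit, were close to silent. Rpl10l had 1 and 3 counts in knockout replicates 1 and 2 and 0 in the other 6 libraries. Rpl39l had 0 to 3 counts and Rpl3l 0 to 6 counts per library.

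RNA was sequenced from islets, the endocrine cell clusters of the pancreas, picked by hand from mice aged 8 weeks. There were 4 wild-type C57BL/6 mice and 4 mice of the same background lacking the snoRNAs U32a, U33, U34 and U35a, which lie in introns of Rpl13a. These snoRNAs are small RNAs of the box C/D class, which guide 2'-O-methylation of ribosomal RNA. Sex is not among the labels used here. The targeted snoRNAs together had 15 counts in the wild-type libraries (7, 1, 5 and 2 in replicates 1 to 4) and 0 in the knockout libraries, all from U32a and U33, since U34 and U35a had 0 counts in every library. These few counts check the labels only loosely. Their host Rpl13a, itself a large subunit gene, stood at 105 ± 26.0 CPM (counts scaled to a total of 1e+06) in wild type and 97.8 ± 8.16 CPM in knockout (SD, n = 4 each). The fitted log2 fold change was -0.10 ± 0.16 (SE), and the quasi-likelihood test of edgeR gave an adjusted p of 0.760.

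A cytosolic ribosome consists of a large subunit, which forms peptide bonds, and a small subunit, which reads the messenger RNA. Cells make the proteins of both subunits in matched amounts, and ribosomal proteins made in excess are degraded. Their messenger RNAs typically begin with a C followed by a run of pyrimidines, the 5' terminal oligopyrimidine (TOP) motif, through which the kinase mTORC1 and the RNA-binding protein Larp1 control their translation together. Many of the genes also hold snoRNAs in their introns, as Rpl13a does, and many have processed pseudogenes. In islets, beta cells translate large amounts of insulin messenger RNA. The exocrine acinar cells that surround islets in the pancreas make digestive enzymes and are rich in ribosomes.

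The pyrimidine run is shown at the annotated transcription start of 8 core genes that hold it, chosen because results below turn on them. Each line gives 15 bases before and 15 bases from the start, 5′ to 3′ on the coding strand, from RefSeq with the build GRCm38.p6. Capitals mark a C followed by at least 4 further C or T, beginning within 5 bases of the start.
Rps21, chr2:180257364-180257393, plus strand: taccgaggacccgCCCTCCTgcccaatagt
Rps15a, chr7:118116133-118116162, minus strand: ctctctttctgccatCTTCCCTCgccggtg
Rps24, chr14:24490663-24490692, plus strand: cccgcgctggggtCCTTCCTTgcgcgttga
Rpl34, chr3:130730323-130730352, minus strand: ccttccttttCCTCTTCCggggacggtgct
Rpl38, chr11:114668565-114668594, plus strand: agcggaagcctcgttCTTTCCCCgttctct
Rpl14, chr9:120571502-120571531, plus strand: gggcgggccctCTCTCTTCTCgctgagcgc
Rpl18, chr7:45718056-45718085, plus strand: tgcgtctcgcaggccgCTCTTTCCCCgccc
Rpl12, chr2:32961697-32961726, plus strand: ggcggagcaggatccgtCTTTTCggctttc

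Of the 56 core genes with a promoter entry, 25 (44.6%) held such a run, against 18.3% of all 27025 promoters of the table. The letters CCGGAA, the core of ETS family binding motifs, occurred on either strand of the 300 bases around the start in 30 of the 56 (53.6%), against 15.1% of all promoters. The letters AAGATGG, part of the YY1 motif, occurred in 8 (14.3%, against 6.46%), and TATAA in 16 (28.6%, against 25.5%). The searches allow motifs to overlap each other. The median log2 fold change of knockout against wild type, described below, was 0.25 over the 25 genes with a run, 20 of them positive, and 0.28 over the 31 genes without one, 29 of them positive. Annotated starts can differ from the starts used in islets, which these data do not show.

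The depth was 2.12e+07 to 4.11e+07 assigned counts per library. Of these, 36.7 to 41.3% fell on Rn45s, the precursor of ribosomal RNA. The libraries also differed in how much exocrine RNA they held: 35 acinar genes took 2.05 to 26.4% of counts in wild type and 5.33 to 27.8% in knockout. The 7 islet hormone genes took 10.2 to 24.3% in wild type and 9.04 to 16.7% in knockout. Duct, endothelial, mesenchymal and immune markers together stayed low, with no list above 0.0371% of counts in any library, and 34 of the 35 acinar genes had counts in every library. Xist, which is made in female cells, exceeded 1000 counts in 1 wild-type and 2 knockout libraries, so sex was not balanced. Whether sex moves with the values below was not tested. In such bulk tissue, fewer cells of a type and less RNA per cell cannot be told apart.

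Ribosomal protein genes as a group took 0.570 to 0.744% of all assigned counts. The share was 0.603, 0.623, 0.591 and 0.595% in wild-type replicates 1 to 4, with little spread, and 0.570, 0.744, 0.617 and 0.724% in the knockout replicates. The knockout libraries thus lay on both sides of the wild-type ones, with means of 0.603 ± 0.0142% and 0.664 ± 0.0841% (SD, n = 4 each). After TMM scaling, which sets libraries to a common level for most genes, the summed level was 8085, 4658, 6012 and 4852 CPM in wild type against 7114, 5655, 8795 and 6520 CPM in knockout. The means were 5902 ± 1574 and 7021 ± 1326 CPM (SD, n = 4 each), and the groups overlapped. Wild-type replicate 1 had the second highest sum of all 8 libraries and stood among the knockout libraries.

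**Figure D1:**
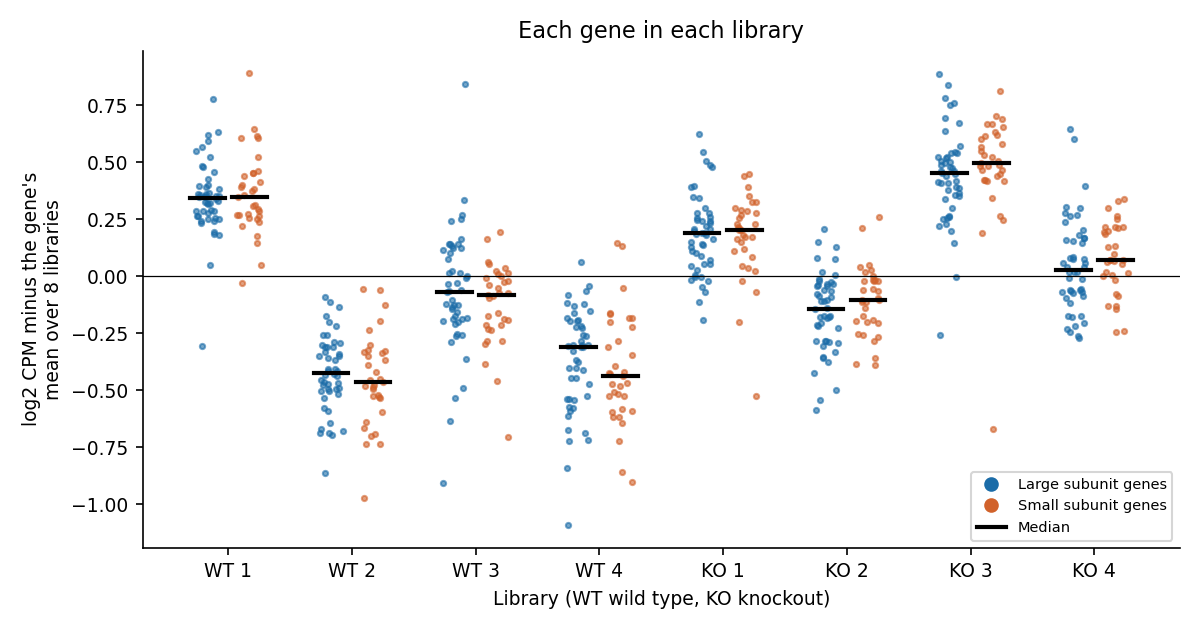
Each gene's log2 CPM minus its mean over the 8 libraries, for the 81 tested ribosomal protein genes, by library, with large and small subunit genes shown apart and a bar at the median of each. Over both subunits the median of wild-type replicate 1 is 0.35 and that of knockout replicate 3 is 0.47, while wild-type replicates 2 and 4 lie at -0.44 and -0.39.

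The genes moved together from library to library. The median Pearson correlation of a gene's log2 CPM with the log2 sum of the other ribosomal protein genes was 0.94 over the 8 libraries, and 0.94 when the mean of each genotype was taken out first. It is given as a description, since all genes share the libraries, their depth and their scaling. In 49 of the 81 genes the correlation exceeded 0.9. It lay under 0.5 in 5: Rps2 (0.03), Rpl29 (0.26), Rps15 (0.32), Rps27rt (0.43) and Rplp2 (0.47). Rps2 and Rpl29 had only 0.278 to 0.474 CPM on average in a genotype, the lowest of the core genes.

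The order of the 8 libraries by summed TMM-scaled level was their order by acinar share. The unscaled percent of assigned counts did not follow that order. It was lowest, 0.570%, in knockout replicate 1 with an acinar share of 22.1%. It was highest, 0.744%, in knockout replicate 2 with an acinar share of 5.33%. The 3 libraries with the largest acinar shares, knockout replicate 3 (27.8%), wild-type replicate 1 (26.4%) and knockout replicate 1 (22.1%), had the 3 largest sums, 8795, 8085 and 7114 CPM. The 2 smallest sums, 4658 and 4852 CPM, belonged to wild-type replicates 2 and 4, with acinar shares of 2.05 and 4.97%. Between these, knockout replicate 2, with 5.33%, had 5655 CPM, and knockout replicate 4, with 17.7%, had 6520 CPM, beside wild-type replicate 3 with 14.4% and 6012 CPM. The part of acinar RNA in the ribosomal protein levels was tested only by adding the acinar share to the fit. The median log2 fold change of the ribosomal protein genes was then 0.11, against 0.25 without it. At an unadjusted p below 0.05, 14 of the 81 were higher in that fit and 6 lower, against 8.22 and 7.43% of all genes, and 0 passed the adjusted threshold.

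**Figure D2:**
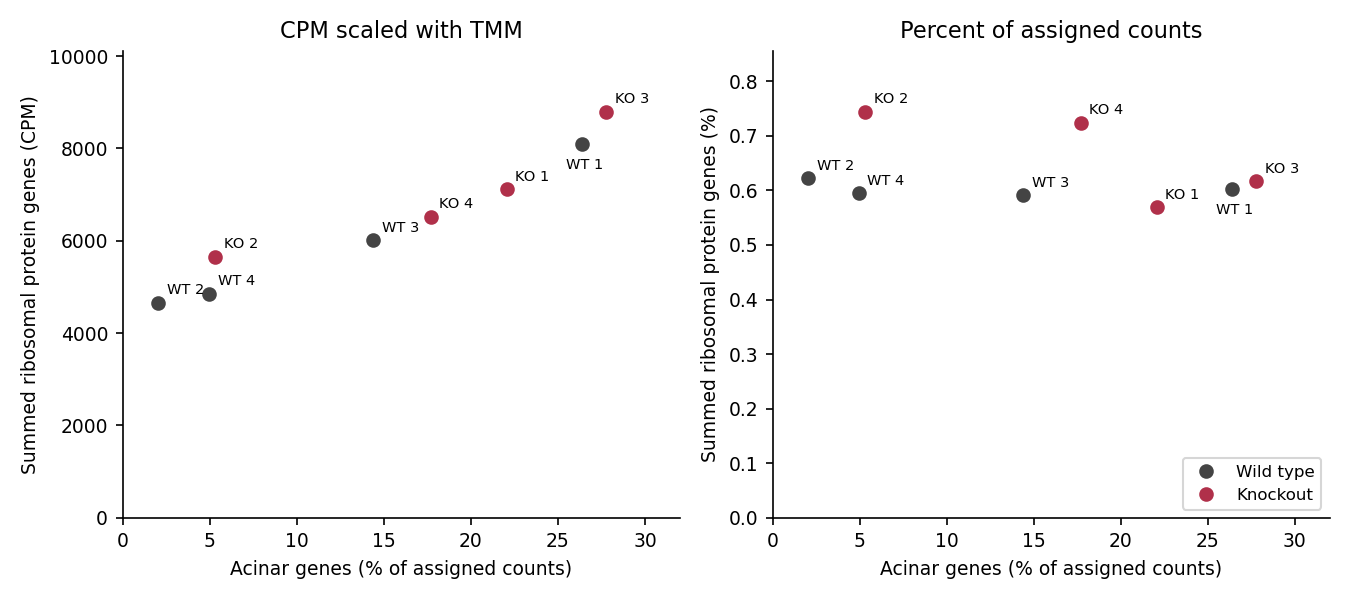
Summed ribosomal protein level in each library against the share of counts on 35 acinar genes, as TMM-scaled CPM and as a percent of all assigned counts, with wild-type and knockout libraries marked and labelled by replicate. The scaled sum runs from 4658 to 8795 CPM along the acinar share, while the share of all assigned counts stays between 0.570 and 0.744%.

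The comparison of knockout with wild type asked whether loss of the 4 snoRNAs goes with other levels of the ribosomal protein messenger RNAs. No ribosomal protein gene passed the test. With edgeR, 0 of 81 genes reached an adjusted p below 0.05, against 2 of 13617 genes overall (0.0147%). At an unadjusted p below 0.05, 8 of the 81 were higher in knockout and 0 were lower, against 8.42% higher and 10.3% lower of all genes tested. DESeq2 called 1 of them, Rps21 (log2 fold change 0.72, adjusted p = 0.0188), among 526 genes that it called overall. In 0 of the 81 genes did the CPM of the 4 knockout libraries lie wholly above or wholly below those of the 4 wild-type libraries, which was the case for 3.68 and 4.66% of all genes.

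The fitted differences were nevertheless mostly of one sign. The log2 fold change was positive in 69 of 81 genes and negative in 12, with a median of 0.25 and an interquartile range of 0.13 to 0.39. Over all genes tested, 51.3% were positive, the median was 0.01 and the interquartile range -0.20 to 0.21. The genes share their libraries and moved together, so these counts are not independent observations. Marker lists of other cells moved beside them. Of 11 beta-cell markers, 10 were negative and 1 was positive (median log2 fold change -0.33), and at an unadjusted p below 0.05 6 were lower and 0 higher, against the 10.3 and 8.42% of all genes. In 5 of the 11 every knockout library lay below every wild-type library, against 4.66% of all genes, and 0 passed the adjusted threshold. They include Ucn3, a peptide of mature beta cells, at -0.66 ± 0.14 and Glp1r, through which the gut hormone GLP-1 acts, at -0.72 ± 0.15, each with an adjusted p of 0.116 in edgeR. The 11 markers took 0.106 to 0.216% of counts in wild type and 0.0905 to 0.176% in knockout. Of the acinar genes tested, 34 of 34 were positive, with a median of 0.52, and 0 passed the adjusted threshold. The part of beta-cell RNA in the ribosomal protein values was not tested. The median was 0.31 for the small subunit (31 of 33 positive) and 0.23 for the large subunit (38 of 48 positive). With the summed ribosomal protein counts as library size the medians were 0.03 and -0.03. That scaling centres these genes near 0 by construction, so it cannot show whether they shifted as a group. Without any composition factor the median over both subunits was 0.14, where that of all genes shifted to -0.11.

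Wild-type replicate 1 decided which genes passed. Without this library, 22 of the 81 genes passed an adjusted p of 0.05 in edgeR, all higher in knockout, while 3.39% of all genes tested were called higher and 1313 genes were called in total. Their median log2 fold change was then 0.42. The 22 comprise 13 large subunit genes, Rpl4, Rpl5, Rpl7a, Rpl9, Rpl11, Rpl13, Rpl22l1, Rpl24, Rpl34, Rpl35a, Rpl36a, Rpl37 and Rpl39, and 9 small subunit genes, among them Rps7, Rps15a, Rps20, Rps21, Rps23, Rps24, Rps25 and Rps27a. The library left out held 26.4% acinar counts, the most of the wild-type libraries, and the 3 that remained held 2.05 to 14.4%, against 5.33 to 27.8% in knockout.

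**Figure D3:**
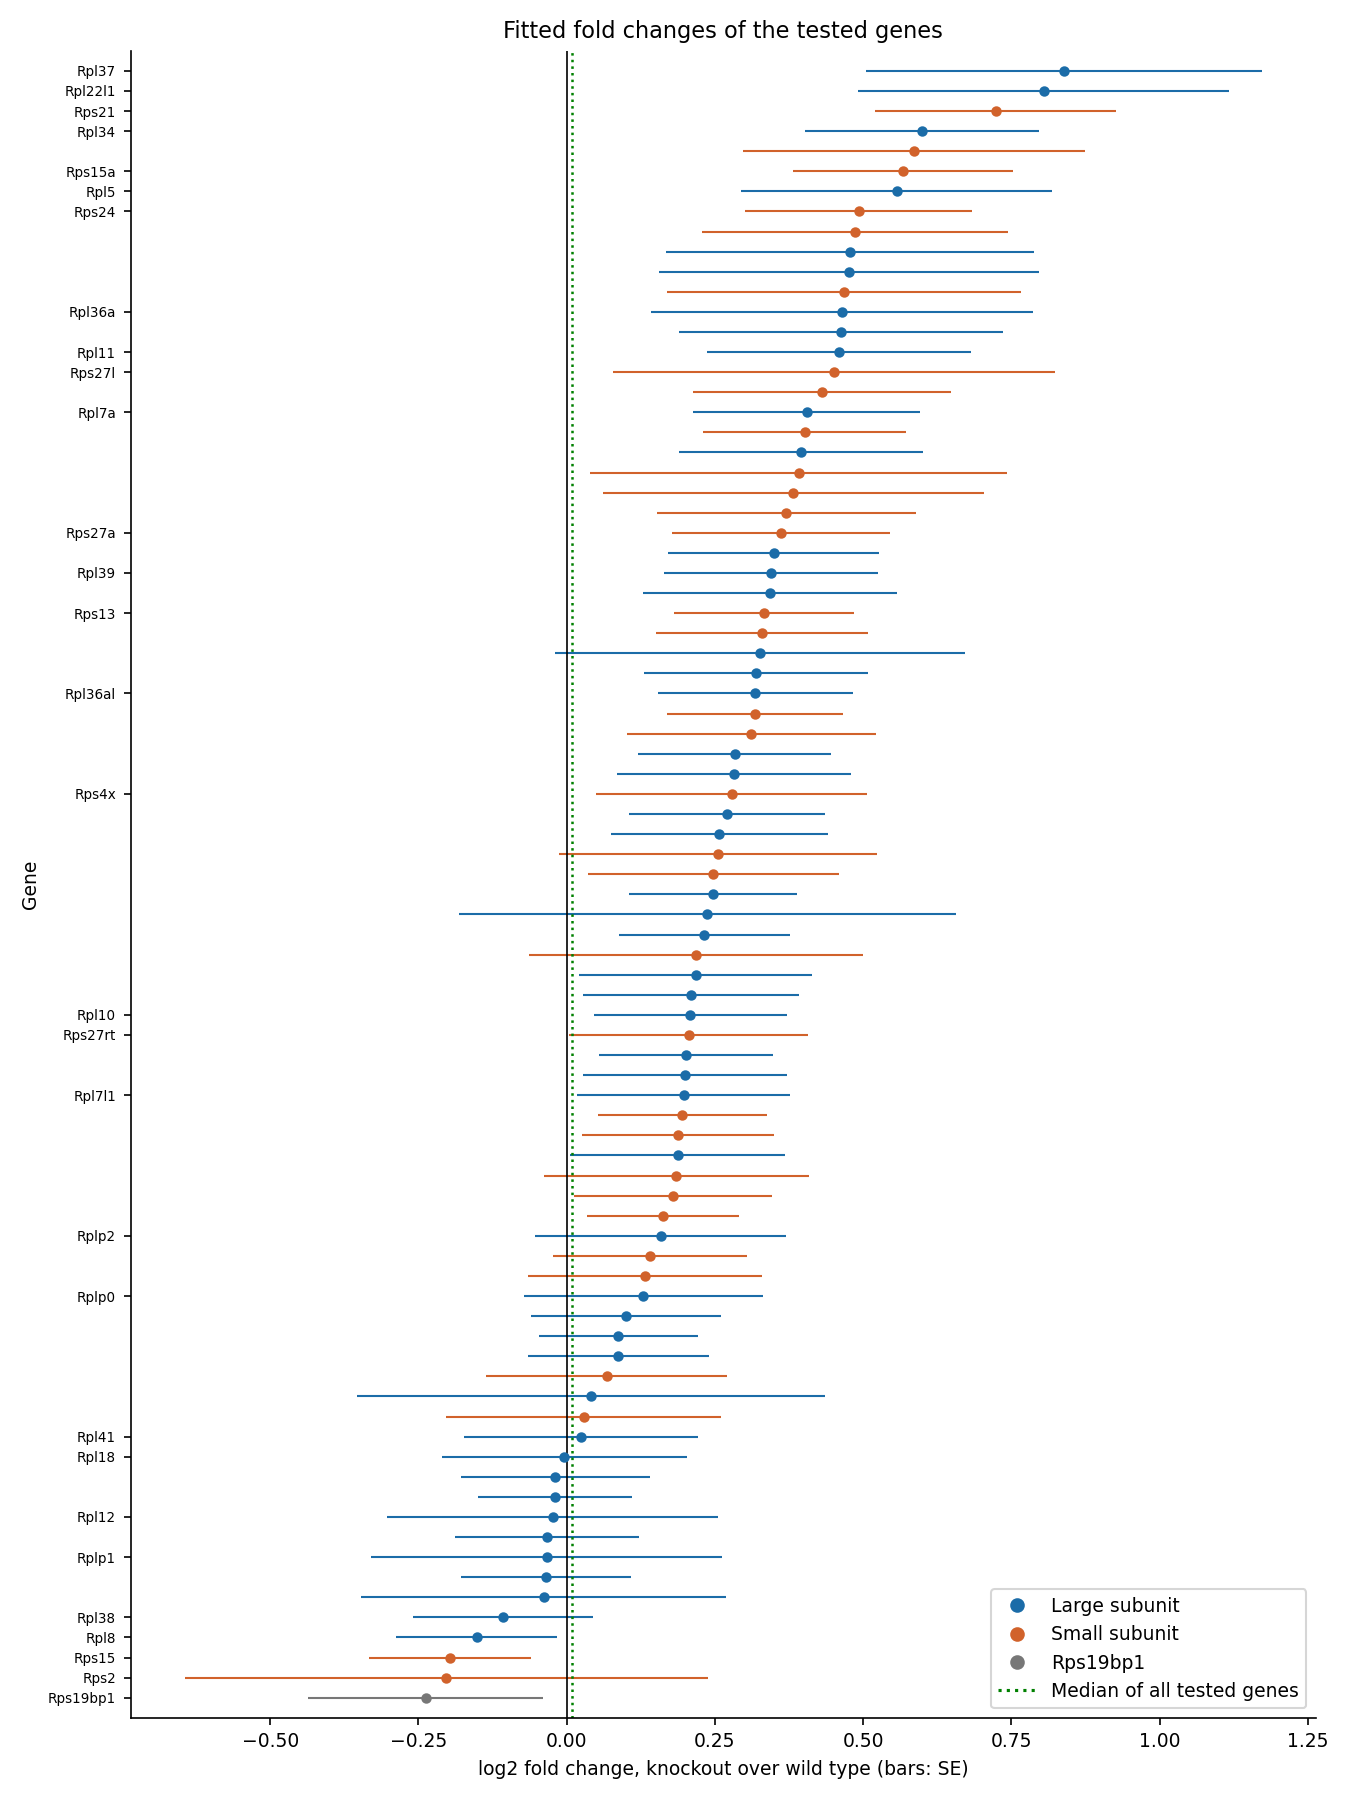
Fitted log2 fold change, knockout minus wild type, with its standard error, for each tested ribosomal protein gene and Rps19bp1 in order of size, coloured by subunit, with a dotted line at the median of all tested genes and labels on the genes named in the text by rule. Most points lie above 0. The ribosomal protein genes run from -0.20 for Rps2 to 0.84 for Rpl37, Rps19bp1 lies at -0.24, and none reached an adjusted p below 0.05. With library sizes set to the ribosomal protein sum the median of the ribosomal protein genes is 0.01, near 0 by construction.

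Among the small subunit genes of smallest p were Rps21, Rps15a, Rps24 and Rps13, all proteins of the body and platform. Rps21, one of the smallest proteins of the subunit, had 58.4, 31.1, 35.2 and 29.4 CPM in wild type against 65.8, 58.1, 69.7 and 61.0 CPM in knockout. Only wild-type replicate 1 reached into the range of the knockout libraries. The fitted log2 fold change was 0.72 ± 0.20 (SE) and the adjusted p in edgeR 0.152, the smallest of the 81 genes. Rps15a, a homologue of bacterial S8, had 18.7, 11.1, 12.3 and 11.6 CPM in wild type against 21.9, 16.5, 24.0 and 17.2 CPM in knockout. Again a single wild-type library, replicate 1, overlapped the knockout range, and the log2 fold change was 0.57 ± 0.19 with an adjusted p of 0.177.

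Rps24, mutated in some patients with the inherited red cell failure Diamond-Blackfan anaemia, had 262, 149, 173 and 140 CPM in wild type against 257, 211, 292 and 260 CPM in knockout. Wild-type replicate 1 exceeded 3 of the 4 knockout libraries, and the other 3 wild-type libraries lay below all of them. The log2 fold change was 0.49 ± 0.19, with an adjusted p of 0.221 in edgeR. Rps13 had 27.2, 19.1, 23.6 and 16.7 CPM in wild type against 24.8, 24.8, 32.1 and 27.3 CPM in knockout, with a log2 fold change of 0.33 ± 0.15 and an adjusted p of 0.266. All 10 head and beak genes and all 13 body and platform genes had positive log2 fold changes, with medians of 0.34 and 0.33.

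The 8 genes of the messenger RNA channel and decoding region had a lower median, 0.15, with 6 positive. They include the 2 small subunit genes with negative values. Rps15, which sits near the decoding site, had 128, 111, 133 and 128 CPM in wild type against 110, 88.9, 139 and 98.2 CPM in knockout. In 3 of the 4 knockout libraries it lay below all wild-type values, but knockout replicate 3 was the highest of all 8. Its log2 fold change was -0.20 ± 0.14, with an adjusted p of 0.440 in edgeR. With the GC trend of each library removed it was 0.068. Rps2, at the entry of the messenger RNA channel, was listed at 0.173 to 0.522 CPM in wild type against 0.177 to 0.353 CPM in knockout, and its log2 fold change of -0.20 ± 0.44 rests on few counts.

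Among large subunit genes, Rpl34, Rpl22l1, Rpl37, Rpl7a and Rpl5 had the smallest p-values. Rpl34 had 88.9, 47.8, 50.9 and 49.0 CPM in wild type against 85.3, 82.5, 104 and 86.6 CPM in knockout. Wild-type replicate 1 lay inside the knockout range and the other 3 well below it. The log2 fold change was 0.60 ± 0.20, with an adjusted p of 0.186 in edgeR. Rpl37, a zinc-finger protein near the exit tunnel, had 7.73, 3.88, 2.87 and 2.52 CPM in wild type against 8.29, 5.97, 7.73 and 8.42 CPM in knockout. Its log2 fold change of 0.84 ± 0.33 was the largest of the 81 genes, with an adjusted p of 0.237. Rpl37 shares 31.3% of its 50-base stretches with Rpl37rt, a row left out of the selection. The log2 fold change of Rpl37rt was 0.23 ± 0.21. Rpl7a, whose introns hold snoRNAs, had 10.9 to 20.1 CPM in wild type against 15.2 to 22.1 CPM in knockout, with a log2 fold change of 0.40 ± 0.19 and an adjusted p of 0.282.

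Rpl5 and Rpl11 bind the 5S ribosomal RNA. Outside the ribosome this particle binds Mdm2, the ubiquitin ligase that degrades p53. Rpl5 had 199, 97.5, 127 and 95.2 CPM in wild type against 180, 148, 256 and 180 CPM in knockout, giving a log2 fold change of 0.56 ± 0.26 with an adjusted p of 0.288 in edgeR. Rpl11 had 101, 55.1, 69.1 and 53.5 CPM in wild type against 93.1, 77.4, 124 and 89.2 CPM in knockout, giving a log2 fold change of 0.46 ± 0.22 with an adjusted p of 0.291. In both genes, wild-type replicate 1 lay inside the knockout range. The p53 gene Trp53 itself stood at 6.37 ± 0.879 CPM in wild type against 4.92 ± 0.699 CPM in knockout (SD, n = 4 each), with a log2 fold change of -0.38 ± 0.15 and an adjusted p of 0.219.

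The stalk, the flexible arm that recruits translation factors, is built from Rplp0, Rplp1 and Rplp2 on a base that includes Rpl12. The stalk genes lay near 0: the log2 fold changes were 0.13 ± 0.20 for Rplp0, -0.03 ± 0.30 for Rplp1, 0.16 ± 0.21 for Rplp2 and -0.02 ± 0.28 for Rpl12, and each of the 4 changed sign under at least 1 other setting. Rplp1, the most abundant of them per length at 329 CPM per kilobase, had 242, 114, 190 and 118 CPM in wild type against 199, 111, 201 and 136 CPM in knockout. Both genotypes thus covered nearly the same range. Rplp2 had 12.1 to 22.3 CPM in wild type against 15.3 to 26.0 CPM in knockout.

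The 9 genes listed under the exit tunnel and its rim, through which the new chain leaves, were all positive, with a median of 0.28. The 14 genes of the shell and core of the large subunit had a median of 0.15 with 9 positive, and the 16 remaining large subunit genes a median of 0.23 with 13 positive. The lowest large subunit values belonged to Rpl8 and Rpl38. Rpl8, which lies near the peptidyl transferase centre, had 185, 146, 187 and 151 CPM in wild type against 168, 125, 174 and 135 CPM in knockout, giving a log2 fold change of -0.15 ± 0.14 with an adjusted p of 0.553 in edgeR. With the GC trend removed it was 0.061. Rpl38, known for its part in the translation of Hox messenger RNAs, had 19.8 to 30.5 CPM in wild type against 19.1 to 29.3 CPM in knockout, giving a log2 fold change of -0.11 ± 0.15. Rps19bp1, which is no ribosomal protein, had 3.65 ± 0.857 CPM in wild type against 3.08 ± 0.466 CPM in knockout, giving a log2 fold change of -0.24 ± 0.20.

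The 5 paralogs that were tested had log2 fold changes of 0.20 to 0.80. Rpl22l1, which can replace Rpl22 in the ribosome, had 13.5, 5.42, 6.81 and 5.49 CPM in wild type against 12.5, 10.4, 16.7 and 14.9 CPM in knockout. All wild-type libraries but replicate 1 lay below all knockout libraries, and the log2 fold change was 0.80 ± 0.31 with an adjusted p of 0.234 in edgeR. Its core counterpart Rpl22 had 19.1 ± 3.86 CPM in wild type against 22.0 ± 4.96 CPM in knockout, with a log2 fold change of 0.20 ± 0.17. The difference between the pair was not tested. The other paralogs were Rpl36al (0.32 ± 0.16), Rps27l, a target gene of p53 (0.45 ± 0.37), Rps27rt (0.21 ± 0.20) and Rpl7l1, a nucleolar protein (0.20 ± 0.18). Rps27rt and Rps27 share nearly all their sequence, so their counts, 5.89 ± 0.383 and 5.32 ± 0.313 CPM in wild type, may be split between them.

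Rpl18, with 40 genes between it and Rpl13a on chromosome 7, had 73.7 ± 16.0 CPM in wild type against 73.5 ± 19.2 CPM in knockout. The 13 core genes of that chromosome had a median log2 fold change of 0.20. The 4 X-linked genes had values of 0.21 ± 0.16 (Rpl10), 0.46 ± 0.32 (Rpl36a), 0.34 ± 0.18 (Rpl39) and 0.28 ± 0.23 (Rps4x). The 29 core genes that hold a snoRNA in GENCODE had a median of 0.28 (25 positive), and the 47 without one 0.23 (39 positive).

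The ratio of large to small subunit level did not overlap between the genotypes. The summed CPM of the large subunit over that of the small subunit was 1.39, 1.40, 1.45 and 1.46 in wild type and 1.37, 1.32, 1.34 and 1.31 in knockout. Every wild-type library lay above every knockout library, and the means were 1.43 ± 0.0337 and 1.34 ± 0.0249 (SD, n = 4 each), a difference of -0.092. The ratio does not depend on the scaling of the libraries, and no test was made, since the genes were chosen with earlier results known. The genotypes stayed apart when any 1 of the 81 genes was left out, with a difference of -0.123 without Rps15 to -0.068 without Rpl41, and without the paralogs, where the means were 1.41 and 1.31. Leaving out any 1 library gave differences of -0.103 to -0.080. The gap between the groups is narrow, from 1.37 in knockout replicate 1 to 1.39 in wild-type replicate 1, and these are the libraries with acinar shares of 22.1 and 26.4%.

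**Figure D4:**
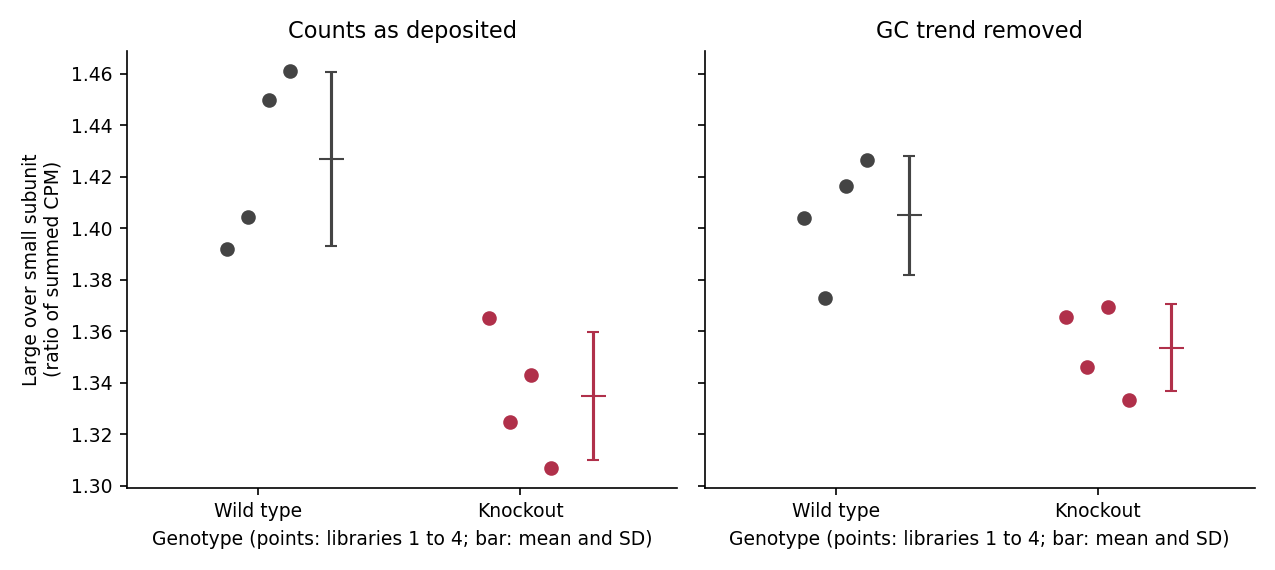
Ratio of summed large subunit CPM to summed small subunit CPM in each library, as measured and after the GC trend of each library was removed, with bars for the mean and SD of each genotype. The wild-type libraries lie at 1.39 to 1.46 and the knockout libraries at 1.31 to 1.37, and with the GC trend removed the difference narrows from -0.092 to -0.051.

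The fold changes of the genes went with their base composition. Across the 76 core genes, the log2 fold change was lower at higher GC content (Pearson -0.44, Spearman -0.42), as it did over 13235 tested genes with a GC value (-0.31 and -0.47). Genes of 1 library set are not independent replicates, and the relation is given as a description. Of the core genes below the median GC of 51.3%, 37 of 38 had a positive log2 fold change, with a median of 0.31, and of those at or above it 27 of 38, with a median of 0.17. All tested genes below that GC content had a median of 0.11 and those above it -0.15, so the ribosomal protein genes lay above the other genes in both classes. Transcript length showed no such relation (Pearson 0.06, Spearman -0.0009). Median GC was 51.6% in the large and 50.9% in the small subunit.

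With a GC trend removed from each library, the ratio was 1.40, 1.37, 1.42 and 1.43 in wild type and 1.37, 1.35, 1.37 and 1.33 in knockout. The groups then nearly touched, with a highest knockout value of 1.369 and a lowest wild-type value of 1.373. The fold changes themselves stayed mostly positive after this step, in 77 of 81 genes with a median of 0.28, and 0 genes passed the test. What gives the relation to GC content in these libraries was not tested.

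**Figure D5:**
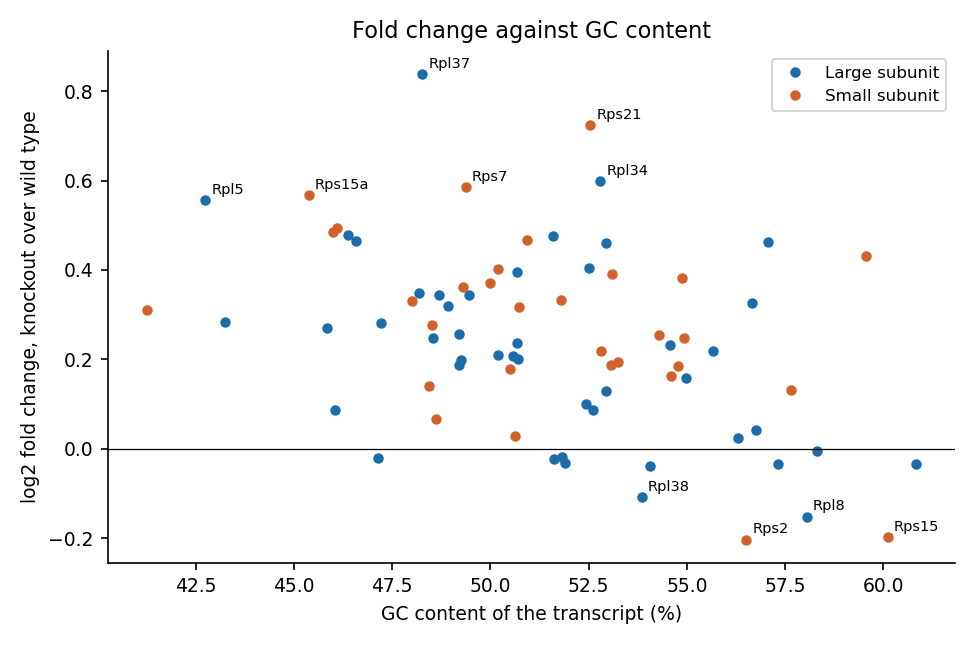
Fitted log2 fold change, knockout minus wild type, against GC content of the transcript for the 76 core ribosomal protein genes, coloured by subunit. Genes below 51.3% GC have a median of 0.31 and genes at or above it 0.17.

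The share of each gene within the ribosomal protein messenger RNAs was compared next, without a test per gene. When each gene was expressed per 100000 CPM of all ribosomal protein genes, 10 genes were higher in all knockout than in all wild-type libraries and 4 were lower, of 81, against 0.610 and 1.14% of all genes tested on the same scale. Ribosomal protein genes vary together, so this scale removes more of their spread than of that of other genes, and the percentages are no expectation for them. The 10 higher genes were Rpl4, Rpl5, Rpl11, Rpl22l1, Rpl34, Rps7, Rps15a, Rps19, Rps21 and Rps24. The 4 lower genes were Rpl14, Rpl38, Rpl41 and Rps15. Of the 38 core genes below the median GC content, 5 were among the higher and 0 among the lower. Of the 38 at or above it, 4 were higher and 4 lower, so all 4 lower genes lay there. The part of GC content in these lists was not tested. In an edgeR fit with the ribosomal protein sum as library size, 0 of the 81 passed an adjusted p of 0.05, and 57 of all genes did.

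Rps21 had 722, 668, 586 and 605 per 100000 in wild type and 924, 1027, 792 and 936 in knockout. Here the groups were clearly apart, at 645 ± 62.1 and 920 ± 96.9 (SD, n = 4 each). Rps15a had 228 ± 16.1 in wild type and 284 ± 19.9 in knockout, and Rps24 had 3053 ± 199 and 3662 ± 276. Rpl4 has a long loop that lines the exit tunnel, but it was listed above under the shell and core. It rested at 6706 to 6930 in wild type and 7090 to 7668 in knockout. Rpl11 stood at 1173 ± 64.0 and 1364 ± 42.6, and Rpl5 at 2159 ± 216 and 2704 ± 166, where wild-type replicate 1 (2467) came close to knockout replicate 1 (2535).

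Rps7, also a Diamond-Blackfan gene, had 1634 ± 188 per 100000 in wild type and 2084 ± 182 in knockout. Wild-type replicate 1 (1911) and knockout replicate 2 (1912) were all but equal, so the separation of Rps7 is only just met. Rps19, the gene most often mutated in Diamond-Blackfan anaemia, had 118 ± 6.52 in wild type and 134 ± 6.19 in knockout. Among the lower genes, Rpl41, which encodes the shortest of the ribosomal proteins, had 5239, 5251, 5523 and 5677 in wild type and 4909, 4294, 4664 and 4521 in knockout. Rps15 had 1587, 2390, 2210 and 2641 in wild type and 1553, 1572, 1584 and 1505 in knockout, so that wild-type replicate 1 lay beside the knockout libraries and the other 3 far above. Rpl38 had 443 ± 61.6 and 340 ± 11.4, and Rpl14 598 ± 65.6 and 485 ± 32.7.

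Levels per transcript length spanned orders of magnitude, although a ribosome holds most of these proteins in equal number. Averaged over the 8 libraries, Rpl41 (736) and Rplp1 (329) were highest in the large subunit, and Rps24 (415) and Rps27a (368), whose product is made as a fusion to ubiquitin, in the small subunit, all in CPM per kilobase. At the low end of the small subunit were Rps2 (0.299 CPM per kilobase) and Rps15a (3.22), the latter with an annotated transcript of 5179 bases, which lowers the value. Rpl29 stood at 0.634 CPM per kilobase. Much of the sequence of these genes is repeated elsewhere: a median of 51.4% of the 50-base stretches of a core transcript occur in another annotated gene. The share was at least 90% in 3 core genes, Rps27 (98.6%), Rpl9 and Rpl10, and under 10% in 6. It was 79.0% in Rps2 and 66.2% in Rpl29. How the authors' counting treated reads that match several places is not given in the sources used here, so levels compared between genes are uncertain. The shared part did not order the genes by level per kilobase (Spearman 0.065) or by log2 fold change (0.080) over the 76 core genes.

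The pseudogene rows that the gene selection leaves out had levels of the same order as some of the genes. Rplp2-ps1 had 69.5 CPM in wild type against 74.9 CPM in knockout on average, above Rplp2 with 17.7 ± 4.48 and 19.8 ± 4.67 CPM. Rps15a-ps6 had 12.9 and 18.7 CPM, close to Rps15a with 13.4 ± 3.55 and 19.9 ± 3.66 CPM, and its log2 fold change of 0.53 ± 0.25 was near that of Rps15a. Rpl37rt had 79.8 and 93.8 CPM, far above Rpl37. Its log2 fold change of 0.23 ± 0.21 lay below the 0.84 ± 0.33 of Rpl37. That of Rplp2-ps1 was 0.11 ± 0.11, beside 0.16 ± 0.21 for Rplp2. Of the 50-base stretches of the annotated transcript, 6.28% in Rps15a, 30.7% in Rplp2 and 31.3% in Rpl37 also occur in another annotated gene. Reads from these stretches cannot be told apart by sequence. The Rps15a percentage is taken over a transcript of 5179 bases, and 39 other genes share some of its stretches. Over a shorter transcript the shared part could be larger, and which transcript islets use was not tested.

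Other genes of the translation machinery were read from lists. Of 20 genes of translation factors and similar TOP messenger RNAs, 0 passed the test, 16 had positive log2 fold changes and the median was 0.13. Btf3, a subunit of the complex that binds nascent chains, had 21.8 ± 3.27 CPM in wild type against 31.0 ± 3.03 CPM in knockout, with a log2 fold change of 0.51 ± 0.12 and an adjusted p of 0.123 in edgeR. Its knockout libraries all lay above its wild-type libraries. Eif3e, of the initiation factor eIF3, had a log2 fold change of 0.47 ± 0.15 and an adjusted p of 0.173. The most abundant of the list, Eef1a1, which brings aminoacyl-tRNA to the ribosome, had 1163 ± 247 CPM in wild type against 1359 ± 192 CPM in knockout.

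Rack1 and Fau, cytosolic ribosomal protein genes with other names, had log2 fold changes of 0.08 ± 0.20 and 0.02 ± 0.13. Of 13 genes of ribosomal protein chaperones and assembly factors, 10 were positive with a median of 0.14 and 0 passed the test. Pdcd2, a chaperone of Rps2, had 2.33 ± 0.636 CPM in wild type against 3.85 ± 0.284 CPM in knockout, with a log2 fold change of 0.72 ± 0.20 and an adjusted p of 0.149 in edgeR. The 25 genes of mTORC1 signalling, which controls the translation of TOP messenger RNAs, were mixed, with 10 positive, 15 negative and a median of -0.12, and 0 passed the test. Rps6ka2, a kinase of ribosomal protein S6 in the MAPK pathway, had 57.2 ± 12.02 CPM in wild type against 37.9 ± 1.87 CPM in knockout, with a log2 fold change of -0.60 ± 0.14 and an adjusted p of 0.121. Larp1 had a log2 fold change of 0.11 ± 0.15 and Mtor of -0.13 ± 0.10.

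Of 8 other snoRNA host genes, 7 were positive, with a median of 0.35. Snhg6, a noncoding host transcript, had 0.376 ± 0.0564 CPM in wild type against 0.908 ± 0.394 CPM in knockout, with a log2 fold change of 1.31 ± 0.36 and an adjusted p of 0.150 in edgeR. The 77 genes of the mitochondrial ribosome, which is separate from the cytosolic one and translates mitochondrial messenger RNAs, had a median log2 fold change of 0.15 with 59 positive. At an unadjusted p below 0.05, 10 of the 77 were higher and 2 lower, against 8.42 and 10.3% of all genes tested, and 0 passed the adjusted threshold. Both groups of ribosomal protein genes thus lay above the median of all genes, 0.01, and the difference between them was not tested.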

How the data were processed

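RNA from 8 libraries was analysed, 4 per genotype from 4 mice each, per the labels' protocols. Total RNA was made with TRIZOL, treated with DNase and amplified with the SeqPlex kit, per the labels' protocols. STAR 2.4.1, Partek and mm9 are named in the submitters' processing notes, without their roles. The authors deposited estimated counts per gene (9.98 to 12.4% of a library's values not whole within 0.01), rounded here to whole numbers. The authors also deposited RPM values, which were used only for limma-trend on log2(RPM + 1).

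The count test used edgeR 4.0.16 (R 4.3.3) with TMM, filterByExpr by genotype, the robust quasi-likelihood F-test with genotype as the only term and Benjamini-Hochberg adjustment over 13617 genes at a threshold of 0.05. CPM are counts per 1e+06 of the TMM-scaled library size of the genes kept. P-values measure the spread between these libraries. The smallest chi-square per degree of freedom between any 2 libraries was 24.7, so no library was a copy. The fit was tested on simulated data. Lengths, GC content and snoRNAs came from GENCODE M21, matched by symbol for 96.6% of genes, and start sequences from RefSeq.

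The genes, lists and tests were chosen with earlier results of these data known. Named genes were those of smallest p (5 per subunit), the 2 highest and 2 lowest per kilobase in each subunit, the 5 most negative, the tested paralogs, a chromosome 7 gene near Rpl13a, X-linked, 5S and stalk genes, up to 2 per other list, and some chosen after their values were seen (Rpl4, Rpl13, Rpl14, Rpl22, Rpl29, Rps7, Rps19, Rps27, Eef1a1, Larp1, Mtor, the pseudogene rows and those called without a library). Some genes that the rule picked are not reported here. Alternatives were other normalizations, filters and tests (DESeq2 1.42.0, limma 3.58.1), the acinar share as a covariate, a block for replicate number, lowess trends on length or GC (span 0.3) and each library left out. Library sizes from ribosomal protein counts, GC removal without wild-type replicate 1 and GC removal for the subunit ratio were added after seeing the data.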

Additional observations from a re-analysis of the deposited data

Results flagged for a closer look

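In 3 of 70 groups of 4 libraries tested, 1 library stood far from the other 3 (Dixon's ratio above 0.829), where chance gives about 1 in 20. Wild-type replicate 1 stood apart for Rpl34, with 88.9 CPM against 47.8 to 50.9 CPM in the other wild-type libraries, and for Rps15a, with 18.7 CPM against 11.1 to 12.3 CPM. Knockout replicate 3 stood apart for Rpl10, with 239.6 CPM against 154 to 169 CPM, at a ratio of 0.82915, only just above the limit. These are the 2 libraries with the largest acinar shares, 26.4 and 27.8%, and the part of acinar RNA in the 3 values was not tested.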

How the results depend on the processing

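The number of genes past an adjusted p of 0.05 over the whole table, 2 with edgeR, was 526 with DESeq2 (199 higher, 327 lower), 51 with limma-trend on the authors' values and 48 with no composition factor. It was 57 with library sizes from the ribosomal protein sum, where the median of all genes was -0.27, and 215 with wild-type replicate 1 left out after removal of the GC trend. Leaving out 1 library gave 2 to 1313, the highest without wild-type replicate 1 (470 higher, 843 lower), and 5 without knockout replicate 4. Of the ribosomal protein genes, 0 were called by edgeR, 1 by DESeq2, 0 to 22 with 1 library left out, and 9 with wild-type replicate 1 left out after removal of the GC trend. The median log2 fold change of the ribosomal protein genes was 0.0071 with library sizes from their own sum. That scaling centres them near 0 by construction. Elsewhere the median stayed positive, from 0.11 with the acinar covariate to 0.46 without wild-type replicate 1 after removal of the GC trend. With 1 library left out it was between 0.13, lacking knockout replicate 3, and 0.42, lacking wild-type replicate 1. The subunit ratio differed by -0.051 in place of -0.092 with the GC trend removed. The causes of these differences were not tested.

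Genes near 0 changed sign, all without passing the test in either case. With the GC trend removed, the log2 fold change was 0.012 for Rpl12, 0.21 for Rpl18, 0.061 for Rpl8, 0.14 for Rplp1 and 0.068 for Rps15. With wild-type replicate 1 also left out, it was 0.29 for Rpl12, 0.41 for Rpl18, 0.12 for Rpl38, 0.18 for Rpl8, 0.46 for Rplp1, 0.15 for Rps15, 0.12 for Rps19bp1 and 0.36 for Rps2. Library sizes from the ribosomal protein sum centre the group near 0 by construction. With them, the log2 fold change was -0.061 for Rpl10 and Rplp2, -0.24 for Rpl41 and -0.047 for Rpl7l1. It was -0.11 for Rplp0 and -0.10 for Rps27rt. Rpl41 was also negative with the acinar covariate (-0.17), the length trend removed (-0.065), limma-trend (-0.12) and no composition factor (-0.10), and Rplp0 with the acinar covariate (-0.041). Rpl12 was 0.0057 with limma-voom. Leaving out 1 library gave ranges of -0.23 to 0.22 for Rpl12, -0.16 to 0.12 for Rpl18, -0.18 to 0.19 for Rplp1, -0.41 to 0.11 for Rps2, -0.12 to 0.18 for Rpl41, -0.0070 to 0.27 for Rplp2 and -0.015 to 0.35 for Rps27rt.

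No label used here pairs libraries of the same replicate number. The correlations of their deviations from the group means were all positive, at 0.038, 0.21, 0.16 and 0.15. Of the 4 wild-type libraries, 3 correlated best with the knockout library of their own number. Whether the libraries were paired was not tested. With the replicate number as a block, 2 genes of the table and 0 ribosomal protein genes passed, the median of the latter was 0.28 and Rpl12 stood at 0.0092. At an unadjusted p below 0.05, 26 of the 81 were then higher and 0 lower, against 8.09 and 8.10% of all genes, where the unblocked fit had 8 and 0.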
